A study of Mus musculus with 6 samples.

Results

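Kirrel2, Xkr7, Kbtbd11 and Sparcl1 are 4 genes that the authors listed in opposite directions in homozygous and heterozygous Chd7 mutant otocysts, each set against wild type. They were chosen by their measured folds, so the directions below are descriptions and are not tested again. The deposited lists hold 1167 distinct genes, of which 56 stand in the lists of both mutant genotypes and 8 of these with opposite signs. The other 4 of those 8 are Robo3, AI506816, Pou4f1 and Nkx6-2.

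Polyadenylated RNA was sequenced from otocysts, the epithelial vesicles that become the inner ear, dissected from mouse embryos of the B6129SF1/J strain at embryonic day 10.5. The genotypes were Chd7Gt/Gt (homozygous, 2 copies of the Gt allele), Chd7Gt/+ (heterozygous, 1 copy) and Chd7+/+ (wild type, 0 copies), with 2 libraries each. Gt stands, in mouse nomenclature, for a gene trap, and the genotype is that of the embryo, so tissue around the otocyst had it too. The deposited values are lists of called genes with a log2 fold change over wild type and an adjusted p. Levels per library and standard errors were not used here, so folds stand without a spread, and the depth is unknown. Whether the 2 libraries of 1 genotype are separate embryos is not in the labels, and the adjusted p-values may therefore measure technical spread only. By the authors' deposited table, Chd7 itself stood at 22.4% of wild type in homozygotes and 67.1% in heterozygotes. Fewer cells of a type and less RNA per cell cannot be told apart in such bulk samples. Defining markers of the otocyst could not be checked for presence, because the lists hold changed genes alone.

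Chd7 encodes a chromatin remodelling enzyme that slides nucleosomes and is known for its part in ear and neural crest development. The 4 genes have unlike products. Kirrel2 encodes an immunoglobulin-type adhesion protein of the nephrin family, found in mouse in pancreatic islets and in progenitors of the dorsal neural tube, where the transcription factor Ptf1a is known to activate it. Xkr7 encodes a membrane protein related to the scramblases that expose phosphatidylserine on dying cells. Kbtbd11 encodes a protein with BTB and kelch domains, a combination common among adaptors of cullin-3 ubiquitin ligases. Sparcl1, also called hevin, encodes a secreted matrix-associated protein of the SPARC family that promotes synapse formation in the mouse brain.

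The promoters shown are those of Kirrel2 and Xkr7, for which the RefSeq table used here gave windows, and both genes were lower in homozygotes and higher in heterozygotes. Each window runs from 250 bases before to 50 bases after the transcription start, in the gene's own direction, from the RefSeq table of build GRCm38.p6. Kirrel2 lies at chr7:30457466-30457765 on the minus strand and Xkr7 at chr2:153031602-153031901 on the plus strand. Capitals mark the E-box CANNTG, the class of site bound by basic helix-loop-helix factors, and the RBPJ core TGGGAA, the letters read by the Notch effector RBPJ, on either strand.
Kirrel2: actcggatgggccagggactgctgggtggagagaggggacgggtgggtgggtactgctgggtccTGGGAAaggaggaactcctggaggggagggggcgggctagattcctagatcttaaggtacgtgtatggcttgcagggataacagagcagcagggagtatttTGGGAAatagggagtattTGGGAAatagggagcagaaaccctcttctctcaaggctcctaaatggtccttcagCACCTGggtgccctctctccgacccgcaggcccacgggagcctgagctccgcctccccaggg
Xkr7: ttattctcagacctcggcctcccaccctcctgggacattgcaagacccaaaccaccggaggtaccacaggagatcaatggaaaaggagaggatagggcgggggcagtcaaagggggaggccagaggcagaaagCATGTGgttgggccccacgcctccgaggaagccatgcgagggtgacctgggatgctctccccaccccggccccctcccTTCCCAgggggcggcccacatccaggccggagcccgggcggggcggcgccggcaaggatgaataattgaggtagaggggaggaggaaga
The Kirrel2 window holds 3 RBPJ cores, which begin 186, 85 and 67 bases before the start, and 1 E-box, which begins 12 bases before it. The cores at 85 and 67 each begin the same repeated stretch of letters, so they may not be separate occurrences. A window with at least 3 such cores makes up 0.368% of all 32851 promoters in the table, while 25.6% hold at least 1. The motifs were chosen with the promoters in view, so such shares are descriptions and test nothing. Xkr7 has 1 RBPJ core and 1 E-box, and 72.3% of all promoters have an E-box. No marked letters of an E-box and an RBPJ core overlap in either window.

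The GC box GGGCGG, the letters bound by Sp1-type factors, occurs 4 times in the Xkr7 window and 1 time in the Kirrel2 window. At least 4 GC boxes are present in 5.49% of promoters and at least 1 in 35.7%. The Xkr7 window alone holds the nuclear receptor half-site AGGTCA, which retinoic acid receptors can bind as a repeat and which 16.3% of promoters hold. The Kirrel2 window alone holds the letters ACGTG, 1 form of the low-oxygen factor core, present in 19.6% of promoters. The form GCGTG was not searched, and the printed Xkr7 window holds it on the opposite strand. Neither holds the TATA box letters TATAAA, found in 13.6%. All 6 motifs were searched on both strands, and a match is a match of letters, not a bound site. These shares too are descriptions, since the motifs were chosen with the promoters in view. GC content was 59.7% for Kirrel2 and 64.7% for Xkr7, above that of 69.7% and 81.1% of promoters.

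In the authors' deposited table, Kirrel2 fell to 21.6% of wild type in homozygotes (log2 -2.21, adjusted p 0.0131) and rose 2.08-fold in heterozygotes (log2 1.05, adjusted p 0.0154). The order of its levels was therefore heterozygous above wild type above homozygous. Set against each other through wild type, homozygotes stood at 10.4% of heterozygotes, a log2 difference of -3.26 between folds of the authors' deposited table, which was not tested. Of the 4 genes it had the largest log2 fold in size in both genotypes.

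Xkr7 moved the same way with smaller folds. By the authors' deposited table it fell to 28.7% of wild type in homozygotes (log2 -1.80, adjusted p 0.0253) and rose 1.63-fold in heterozygotes (log2 0.71, adjusted p 0.00782). Homozygotes stood at 17.6% of heterozygotes, a log2 difference of -2.51 from the authors' deposited table.

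Kbtbd11 went the other way. According to the authors' deposited table it rose 2.08-fold in homozygotes (log2 1.06, adjusted p 0.0253), and in heterozygotes it fell to 57.6% of the wild type level (log2 -0.79, adjusted p 1.17e-05). The order of its levels was homozygous above wild type above heterozygous. Homozygotes stood 3.61-fold above heterozygotes, a log2 difference of 1.85 from the authors' deposited table.

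Sparcl1 followed Kbtbd11 closely. The authors' deposited table gives a rise of 1.88-fold in homozygotes (log2 0.91, adjusted p 0.0416) and a fall to 64.3% of the wild type level in heterozygotes (log2 -0.64, adjusted p 1.14e-05). The homozygous level was 2.92-fold the heterozygous one, a log2 difference of 1.55 from the authors' deposited table. Its homozygous call is the nearest to the 0.05 threshold of the 8 calls described here. The last gene inside that list had an adjusted p of 0.0498 by the authors' deposited table, and genes outside it have no value here.

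**Figure D1:**
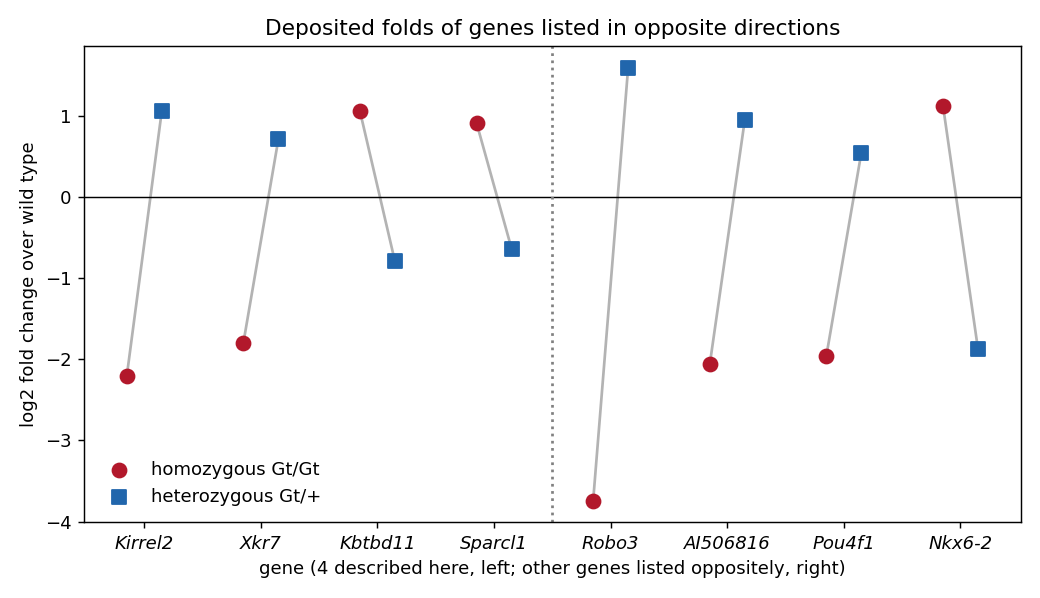
Deposited log2 fold changes over wild type (vertical axis) of the 8 genes listed in opposite directions, with homozygotes as circles and heterozygotes as squares, and no error bars, since errors were not used here. Kirrel2 and Xkr7 lie below 0 in homozygotes and above 0 in heterozygotes, and Kbtbd11 and Sparcl1 the reverse.

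For each of the 4 genes the homozygous log2 fold was the larger in size. The ratio of the homozygous to the heterozygous log2 size was 2.54 for Xkr7, 2.09 for Kirrel2, 1.43 for Sparcl1 and 1.33 for Kbtbd11, from the authors' deposited table. Of the 4, the 2 genes lower in homozygotes thus had the larger ratios. Among the other genes listed oppositely the ratio was 3.60 for Pou4f1, 2.35 for Robo3, 2.19 for AI506816 and 0.60 for Nkx6-2. Listed folds were larger in homozygotes in general. Their median log2 folds were 1.31 for higher and -1.35 for lower genes, against 0.94 and -0.72 in heterozygotes, from the authors' deposited table. The wild type libraries are shared by both comparisons, so their folds are not independent of each other. At an adjusted p of at most 0.01 in both comparisons 0 of the 4 genes would have been listed oppositely, since each has at least 1 adjusted p between 0.01 and 0.05.

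Within their lists the 4 genes took unlike places by fold. The authors listed 669 genes as lower and 416 as higher in homozygotes, and 95 as lower and 43 as higher in heterozygotes. The number of genes tested is not given in the sources used here. Of 21924 protein-coding gene names in the GENCODE M21 annotation, 2.75% were listed as lower and 1.7% as higher in homozygotes, and 0.406% as lower and 0.178% as higher in heterozygotes. As the lists chose the 4 genes, these shares say nothing further about them.

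Among the genes lower in homozygotes, 113 had a larger fold than Kirrel2 and 225 a larger one than Xkr7. Among those higher in homozygotes, 277 exceeded Kbtbd11 and 326 exceeded Sparcl1, so both lay below 1.31, the median of that list in the authors' deposited table on the log2 scale. Their heterozygous positions were nearer the middle. Of the genes higher in heterozygotes, 17 had a larger fold than Kirrel2 and 26 than Xkr7, and of those lower in heterozygotes 39 exceeded Kbtbd11 and 50 exceeded Sparcl1.

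For Xkr7, Kbtbd11 and Sparcl1 the larger fold and the smaller adjusted p stood in different genotypes. These genes had the larger log2 fold in size in homozygotes and the smaller adjusted p in heterozygotes. The gap in adjusted p was far wider for Kbtbd11 and Sparcl1 than for Xkr7. Kirrel2 had both the larger fold and the smaller adjusted p in homozygotes. Of the 50 other genes higher in homozygotes whose log2 fold lay within 0.1 of that of Kbtbd11, 41 had a smaller adjusted p. For Sparcl1 this was true of 52 of 64 genes, for Xkr7 of 48 of 58 genes lower in homozygotes and for Kirrel2 of 25 of 39. In heterozygotes 5 of the 13 genes of like fold had a smaller adjusted p than Kbtbd11, and 5 of 15 a smaller one than Sparcl1, while both of the 2 genes of like fold had a smaller one than Kirrel2 and 3 of 4 a smaller one than Xkr7. The level and spread of each gene, on which such a p also depends, were not used here.

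**Figure D2:**
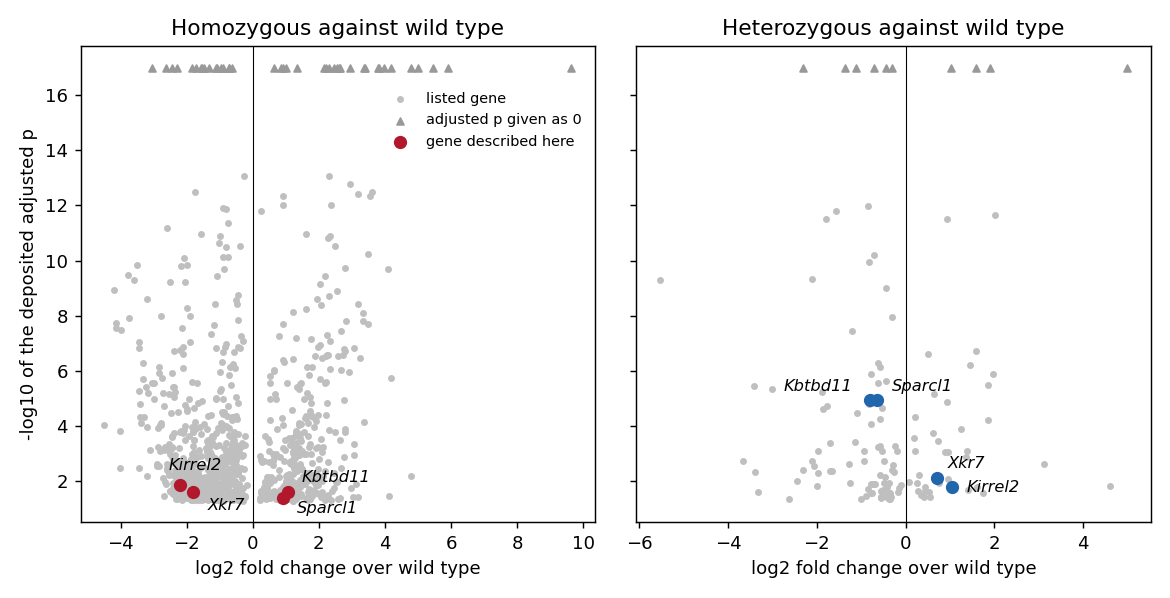
Deposited log2 fold change (horizontal axis) against -log10 of the deposited adjusted p (vertical axis) for all listed genes, homozygous at left and heterozygous at right, with the 41 and 10 genes whose adjusted p is given as 0 drawn as triangles at the top. All 4 genes sit near the lower edge in homozygotes, while Kbtbd11 and Sparcl1 stand well above it in heterozygotes.

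The genes most like each member were sought among the 56 listed in both comparisons, by the distance between the 2 log2 folds. The closest to Kirrel2 was AI506816 (distance 0.18), a processed transcript in GENCODE M21, with log2 folds of -2.06 in homozygotes and 0.94 in heterozygotes in the authors' deposited table. It was followed by Xkr7 (0.54) and by Pou4f1 (0.57), the POU homeobox gene of sensory neurons, at -1.96 in homozygotes and 0.54 in heterozygotes in the authors' deposited table. Xkr7 had Pou4f1 as its closest gene (0.23), ahead of AI506816 (0.35) and Kirrel2 (0.54). Kirrel2, Xkr7, AI506816 and Pou4f1 lay close together by this distance. Robo3, an axon guidance receptor of commissural neurons, had the same signs with larger folds. They were -3.74 in homozygotes and 1.59 in heterozygotes in the authors' deposited table. The distance uses the same log2 folds by which Kirrel2 and Xkr7 were chosen. Of the 56 genes, 5 had this pair of signs, so few like-signed genes were available as neighbours. The closeness therefore largely follows from that choice and tests no likeness.

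Kbtbd11 and Sparcl1 were each other's closest gene, at a distance of 0.21. The next for both was Nkx6-2, a homeobox gene of the ventral neural tube, with log2 folds of 1.13 in homozygotes and -1.87 in heterozygotes in the authors' deposited table, at distances of 1.08 from Kbtbd11 and 1.25 from Sparcl1. The third was Dlk1, a Notch-related surface protein gene, which was higher in both genotypes (1.61 in homozygotes and 0.40 in heterozygotes) in the authors' deposited table. After the first neighbour the likeness was thus loose for this pair. These distances too use the folds by which the pair was chosen, and 3 of the 56 genes had its signs. They are descriptions and test no likeness.

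**Figure D3:**
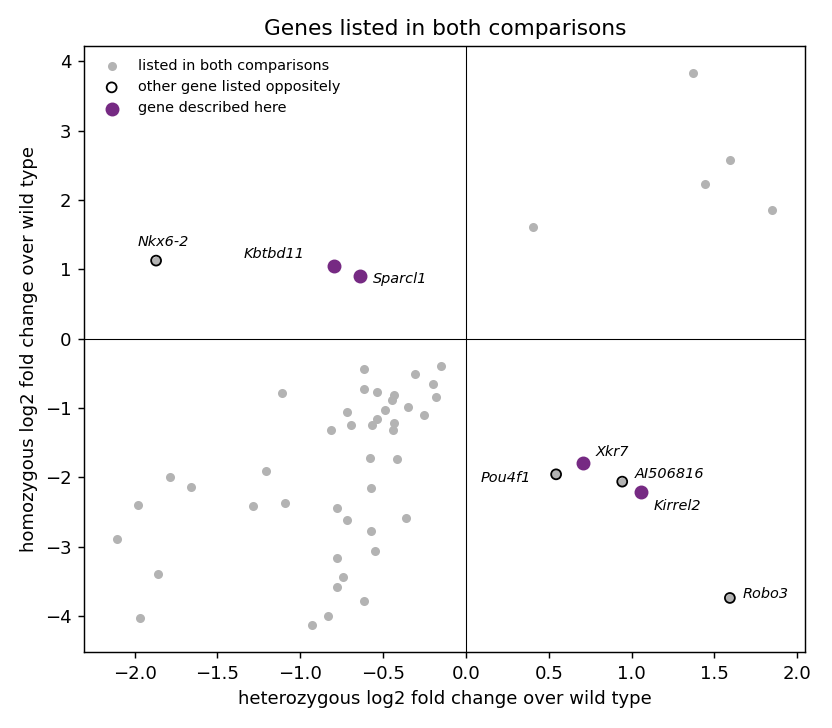
Homozygous (vertical axis) and heterozygous (horizontal axis) log2 fold changes over wild type for the 56 genes listed in both comparisons, which share their wild type libraries. Kirrel2 and Xkr7 lie at lower right beside AI506816 and Pou4f1, and Kbtbd11 and Sparcl1 lie side by side at upper left.

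In GENCODE M21 the genes lie on chromosomes 7 (Kirrel2), 2 (Xkr7), 8 (Kbtbd11) and 5 (Sparcl1), and all are protein-coding. Their nearest protein-coding neighbours on either side, 8 genes in all, were listed in neither comparison. One of these is Nphs1, the nephrin gene, which lies beside Kirrel2 on the opposite strand and is also known to be activated by Ptf1a in mouse. The longest transcripts measured 3901 nt for Kirrel2 and 2711 nt for Xkr7, both shorter than the median of 4869 nt among genes lower in homozygotes. They measured 6973 nt for Kbtbd11 and 2759 nt for Sparcl1, both longer than the median of 2725 nt among genes higher in homozygotes. In heterozygotes the medians were 3657 nt for higher and 3700 nt for lower genes. Against these Kirrel2 and Kbtbd11 were longer and Xkr7 and Sparcl1 shorter.

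Among the 4 genes, Kbtbd11 alone shares annotated exon bases with another gene. Of the exon bases of Kbtbd11, 24.8% are shared with Gm37844, an unverified transcript on the opposite strand, and the library kit in the labels does not mark strand, so reads from that stretch could belong to either. Whether any did was not tested. Gm37844 was listed in neither comparison. The antisense genes 5830468F06Rik at Kbtbd11 and Gm26703 at Sparcl1 share no exon bases with them, and no gene overlaps Kirrel2 or Xkr7.

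Relatives and partners of the 4 proteins were mostly not listed. Gene lists are given here by counts, beside the 4.45% of protein-coding names listed in either direction in homozygotes and 0.584% in heterozygotes, and the lists were drawn up with earlier results of these data known. Of 11 other genes of the nephrin family and its intracellular partners, 1 was listed in homozygotes, the junction scaffold gene Magi1, at a log2 fold of -0.62 by the authors' deposited table, and 0 in heterozygotes. Kirrel3, Kirrel1 and Nphs1 were among those not listed. Of the 7 other Xk family genes, 0 were listed in either genotype.

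Genes of phosphatidylserine exposure, clearance and apoptosis, the processes tied to the relatives of Xkr7, had 4 of 25 listed in homozygotes, all 4 higher, and 0 in heterozygotes. They were Bsg, which encodes a chaperone of the scramblase Xkr8 (log2 1.30), the pro-apoptotic genes Pmaip1 (2.20) and Bbc3 (1.52), and Mfge8, which encodes a bridge between phosphatidylserine and phagocytes (0.59), in the authors' deposited table. Their median log2 fold was 1.41, close to the 1.31 of all genes listed as higher in homozygotes. Xkr7 itself was lower there.

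Of the 8 other Kbtbd genes, 1 was listed in homozygotes, Kbtbd8, a cullin-3 adaptor gene, which was lower (log2 -1.46 and adjusted p 0.0443 by the authors' deposited table). Of 39 genes annotated in GENCODE M21 from the Klhl family, with Cul3, Rbx1 and Keap1, 1 was listed in homozygotes, Klhl35, also lower (log2 -2.12 by the authors' deposited table). Of 7 other SPARC family genes, 1 was listed in homozygotes, the testican gene Spock1, again lower (log2 -1.52 and adjusted p 0.0404 by the authors' deposited table). All these lists had 0 listed genes in heterozygotes. In homozygotes each of the 3 had 1 call, too few to describe a family, and 0 at an adjusted p of at most 0.01.

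Kirrel2 belongs to the Ptf1a-dependent program of dorsal inhibitory neurons. In homozygotes 1 of 20 other genes gathered for that program was listed, the LIM homeobox gene Lhx5, which was lower (log2 -2.87 and adjusted p 0.000579 by the authors' deposited table). That is 5% of the list, near the 4.45% of all protein-coding names. In heterozygotes 3 of the 20 were listed (15%, against 0.584% of protein-coding names) and all 3 were higher. They were Prdm13, which encodes a regulator of inhibitory fate (log2 1.86), the corepressor gene Skor1 (1.73) and Tfap2b (0.64), also a neural crest gene, in the authors' deposited table. Their median log2 fold was 1.73, beside 0.94 over all genes listed as higher in heterozygotes. Ptf1a itself was listed in neither, and Prdm13, Skor1 and Tfap2b were not listed in homozygotes. At an adjusted p of at most 0.01, 2 of the 3 heterozygous calls were left. The list was drawn up with earlier results of these data known, and not all of its genes are particular to that program. It holds Pax2 and Pax8, which the otic list holds too, and also Rbpjl, Tal1, Gata2 and Gata3. Its shares and medians therefore test no link with Kirrel2, and the part of this program in the folds of Kirrel2 was not tested.

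Markers of the neural tube, the tissue beside the otocyst, were listed in both genotypes and in both directions. Of 25 genes of dorsal progenitors and the Atoh1-dependent neurons, 10 were lower and 2 higher in homozygotes, and 4 were lower and 3 higher in heterozygotes. The lower ones in homozygotes included Robo3, the homeobox gene Lhx2 (log2 -3.16) and Isl1 (-2.39), and the roof plate signal gene Wnt1 was higher (3.19), in the authors' deposited table. In heterozygotes Barhl1 (log2 -1.79) and Atoh1 (-1.77) were lower, while Robo3 and Pax3 (0.93) were higher, in the authors' deposited table. Of 15 ventral neural tube genes, 1 was lower and 1 higher in homozygotes, and 8 were lower in heterozygotes, where their log2 folds had a median of -3.17. These 8 held Shh (log2 -5.54), Foxa2 (-3.42), Nkx6-1 (-2.12) and Ntn1 (-1.37) in the authors' deposited table. The dorsal list holds Robo3 and Pou4f1 and the ventral list holds Nkx6-2. These are among the genes listed oppositely, so they add to the counts in both directions. The amount of neural tube in each dissection was not measured, and its part in the folds of the 4 genes was not tested.

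Sparcl1 is made in other tissues by radial glia and by blood vessels. Of 17 radial glia genes, 3 were listed in homozygotes, all 3 lower, opposite to Sparcl1. They were Fabp7 (log2 -2.42), Nes (-1.09) and Hes5 (-1.41), in the authors' deposited table, and 0 of the 17 were listed in heterozygotes. Of 20 endothelial, pericyte and smooth muscle genes, 4 were listed in homozygotes, all 4 higher, like Sparcl1. They were the smooth muscle actin gene Acta2 (log2 3.35), the scavenger receptor gene Stab2 (2.23), and the endothelial surface genes Pecam1 (0.92) and Emcn (0.60), in the authors' deposited table. In heterozygotes, where Sparcl1 was lower, Stab2 was the 1 listed gene of the 20, and it was higher (log2 1.44 by the authors' deposited table). In homozygotes 17.6% of the radial glia list and 20% of the vessel list were called, beside 4.45% of protein-coding names. Among all genes listed in homozygotes, 61.7% were lower and 38.3% higher. The part of vessel cells in the folds of Sparcl1 was not tested.

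Genes of the other tissues in or beside the dissected vesicle are given for completeness. Of 25 otic epithelium genes, 7 were lower in homozygotes, among them Otx1, Otol1, Tbx3 and Eya1, and 0 were listed in heterozygotes. Of 18 periotic mesenchyme genes, 4 were lower and 2 higher in homozygotes, and 4 were lower and 1 higher in heterozygotes. Of 15 erythroid names, 2 were lower in homozygotes and 4 in heterozygotes, globin genes that share reads with near-identical copies among them. The part of these tissues in the folds of the 4 genes was not tested.

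**Figure D4:**
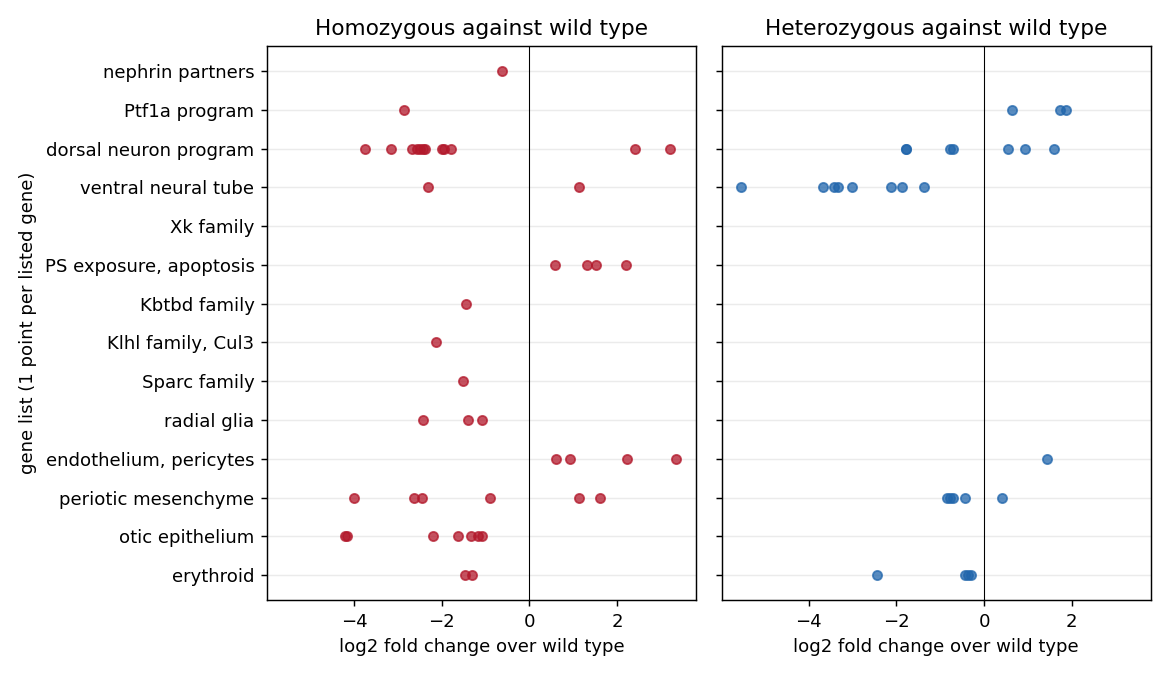
Deposited log2 fold changes over wild type (horizontal axis) of the listed genes in each of the 14 gene lists (rows), homozygous at left and heterozygous at right, 1 point per gene, PS standing for phosphatidylserine. The 4 genes themselves are in no list, and rows without points had no listed gene.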

How the data were processed

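The log2 fold changes and adjusted p-values were computed by the authors and deposited as 4 lists of genes, 1 for each direction of the homozygous and the heterozygous comparison with wild type. Folds are read as mutant over wild type, from the names and signs of the lists and from Chd7, which is lower in both. Per the submitters' processing notes the build was mm9 and the tools included DESeq 1.22.1 and Bowtie2 2.0.6, without their roles. Read counting, low-count filters and strand use are not given in these sources. Groups followed the genotype in the labels. No test was run: folds were converted to linear values, subtracted, ranked within lists and counted over 14 gene lists (the nephrin, Ptf1a, dorsal, ventral, Xk, apoptosis, Kbtbd, Klhl, SPARC, radial glia, vessel, otic, mesenchyme and erythroid lists). The 4 genes and the lists were chosen with earlier results of these data known, and the motifs with the promoters in view. Genes named are the 4, the others listed oppositely, the 3 nearest in both folds, up to 4 listed genes of each list by adjusted p, and Chd7. The unlisted relatives named were chosen after the lists were seen.

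Symbols were matched directly to GENCODE M21 (GRCm38), which gave 1003 of 1085 homozygous and 131 of 138 heterozygous genes, and since the files name another build it served for names, lengths, overlaps and neighbours. Promoters came from RefSeq (GRCm38.p6), whose table gave windows for Kirrel2 and Xkr7. Those of Kbtbd11 and Sparcl1 are not shown. The functions were tested on simulated data. Computation used Python 3.11.15, numpy 2.4.6, pandas 2.3.3 and matplotlib 3.10.9.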

Additional observations from a re-analysis of the deposited data

How the results depend on the processing

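The opposite calls of the 4 genes rest on the authors' threshold. With an adjusted p of at most 0.01 in both comparisons 0 of the 4 genes were left, and 0 at 0.001, while of the 8 genes listed oppositely 2 were left at either setting, Robo3 and Nkx6-2. With log2 folds of at least 0.5 in size all 4 and all 8 were left, and at 1 Kirrel2 was the 1 left of the 4 and 3 were left of the 8. No deposited sign changed, as these settings only remove genes. Of the 28 counts of listed genes (14 lists in both comparisons), 7 fell by more than 1.5 times at 0.01, 11 at 0.001 and 5 at a log2 fold of at least 1. The 28 include counts that were 0 as deposited, such as that of the Xk list in both comparisons. Those could not fall, so the 28 overstate how many counts were put to a trial. With each fold divided by its SD the 3 nearest genes of Kirrel2 and of Xkr7 stayed the same, and Kbtbd11 and Sparcl1 kept 1 of 3, each other. Only the bases before the start held 2 of the 4 GC boxes of Xkr7, and the other motif counts did not change. No paired analysis was possible because the results come from no test and no value per library was used. For the same reason leaving out a library, other normalizations and DESeq2 were not run, and the planned comparison of protein sequences was not run. Depth per library is unknown.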
